A study of Mus musculus with 20 samples.

Results

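Livers of ovariectomized mice that lacked estrogen receptor alpha were compared with livers of wild-type mice, both gavaged with placebo, so that the receptor's absence was the contrast and no estrogen was given. The members were the 10 arrays labelled as placebo, 5 from wild-type animals (ERa+/+) and 5 from null animals (homozygous for the receptor knockout), of 20 arrays in all. All animals had been ovariectomized at 4 weeks of age and received castor oil with 5% ethanol at 9 weeks, and liver was taken 4 hours later. The other 10 animals, 5 of each genotype, received estradiol (E2) at 1 mg/kg in the same vehicle, and served here as separate animals in which a placebo difference could be looked for again. The label text derives the wild-type breeders from the parents of the null mice. The mutant allele, its strain background and the exons it removes are not given in the sources used here.

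Estrogen receptor alpha, encoded by Esr1, is a nuclear receptor that binds estradiol and then DNA at estrogen response elements, and it is the main estrogen receptor of hepatocytes. Ovariectomy takes away most circulating estradiol, so few receptors carry ligand in such animals. Receptors without ligand can still be activated by growth factor kinases, and estrogen action in the brain and pituitary shapes the growth hormone pattern that sets sex-biased liver genes.

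Levels are log2 intensities relative to the 75th percentile of the array, and a difference is null minus wild type on that log2 scale. Of 21603 genes detected on at least 4 of 5 arrays of either placebo group, 16 (0.0741%) passed an adjusted p of 0.05 in the limma fit. Of these, 6 were higher (0.0278% of genes) and 10 lower (0.0463%) in null livers. At an unadjusted p under 0.05 there were 2221 genes (10.3%), and the 2 groups did not overlap for 406 genes (1.88%), the 16 called genes among them. All 16 lay on the same side in null livers within each of the 3 slides that held both genotypes. Groups that do not overlap fix this in advance. Correlation across genes was 0.985 to 0.994 between arrays of 1 placebo group, and 0.98 to 0.992 between genotypes. Wild-type animals had 55.2% to 58.7% of their spots well above background and null animals 51.6% to 60.4%, a difference in means of 1.14 percentage points (p = 0.556, exact 2-sided permutation test, smallest possible p 0.00794). Animals carry numbers in the labels whose meaning is not given, and 3 of the 5 null placebo animals but none of the wild types were numbered below 750. Every animal numbered below 750 was then left out of the fit, which keeps 2 of the null placebo animals. All 16 genes kept their direction, which was fixed in advance because their groups did not overlap. With these animals left out, 2 genes were called. Those 2 were Esr1 and Nat8f5, the second named after its values were seen, at 2.32 ± 0.25 (SE, adjusted p = 0.0258) against an adjusted p of 0.113 with all animals. Leaving out null animal 3 raised the count to 51 genes, with all 16 among them, and leaving out wild-type animal 3 lowered it to 6.

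**Figure D1:**
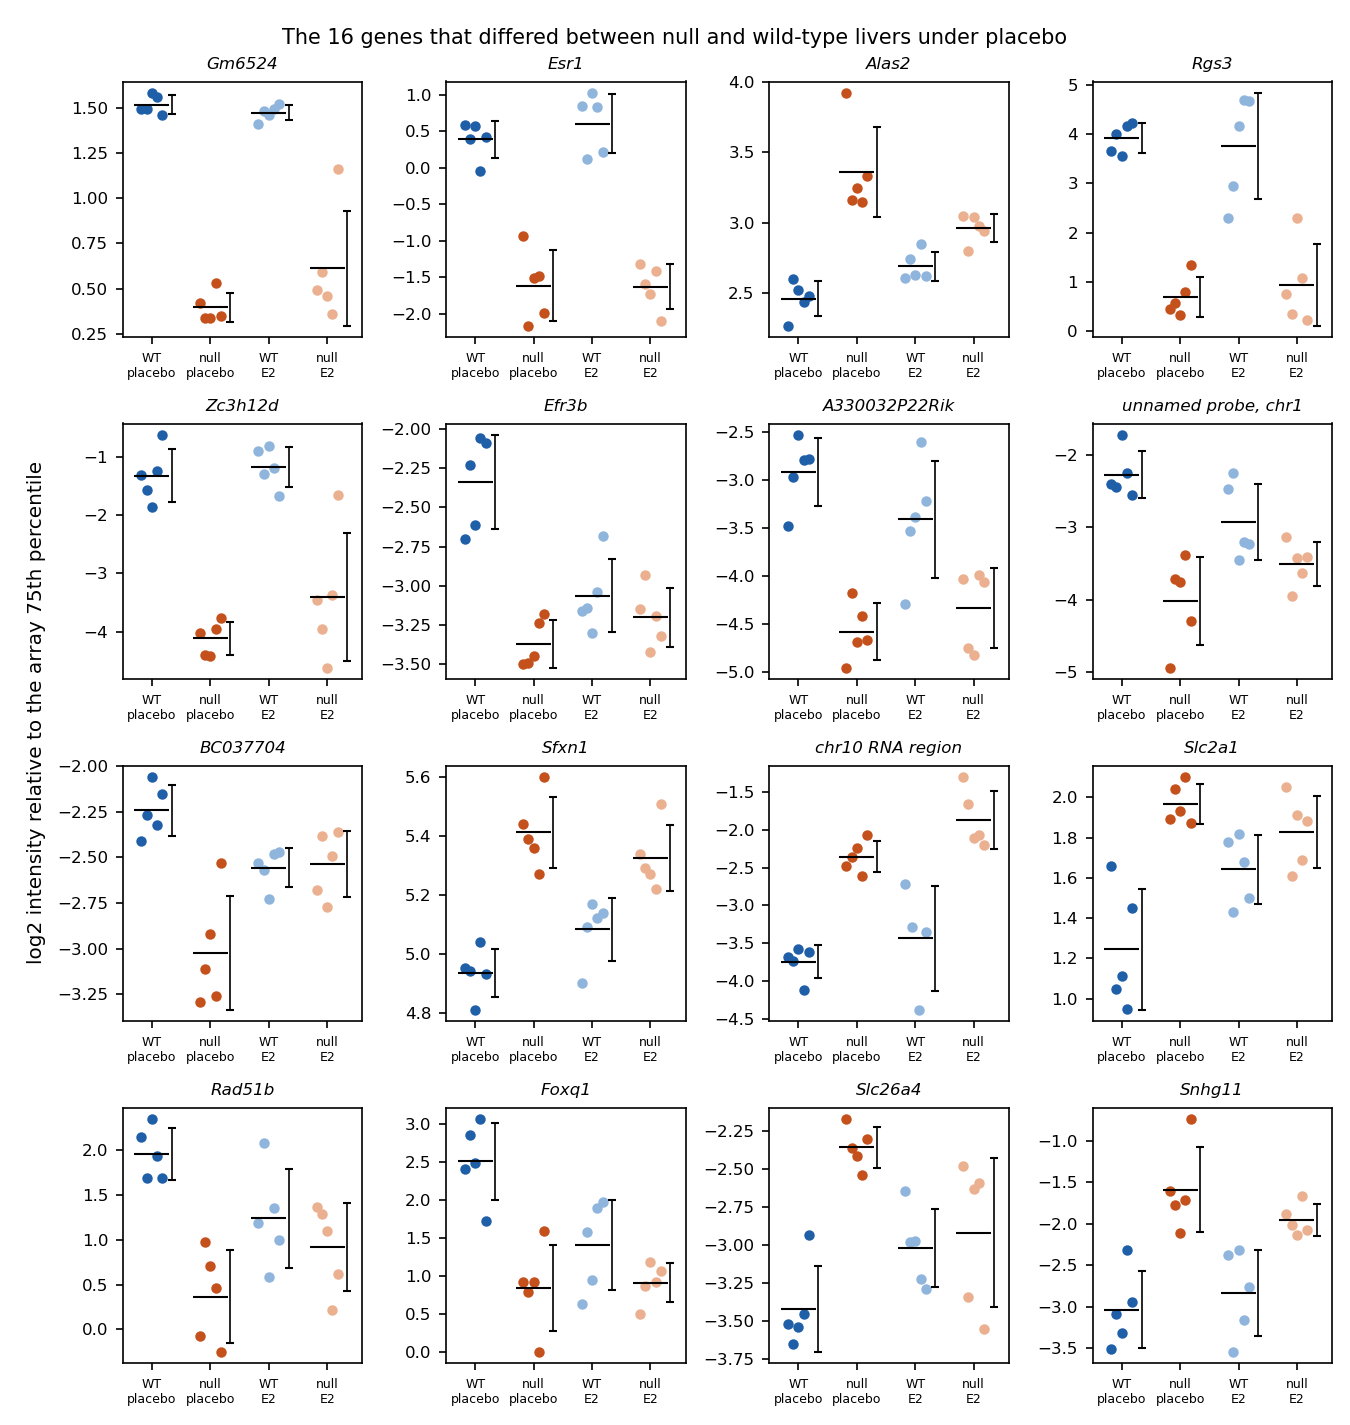
Log2 intensity relative to the 75th percentile of the array (vertical axis) for the 16 called genes in the 4 groups of 5 animals; points are animals, horizontal lines group means and whiskers 1 SD, and wild-type E2 animal 4 has no value for the chromosome 10 RNA region. The 2 placebo groups do not overlap for any of the 16, and for Efr3b and BC037704 the E2-treated groups lie together.

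Esr1 itself was 4.0-fold lower in null livers. Its levels were 0.59, 0.39, 0.57, -0.04 and 0.42 in wild-type animals 1 to 5 and -0.93, -2.16, -1.51, -1.48 and -1.98 in null animals 1 to 5. Every null animal lay below every wild type, and the difference was -2.0 ± 0.23 (SE, adjusted p = 0.000441). The reporter was well above background in all 5 null animals, so signal was lower and not absent. That reporter lies at chr10:5343056-5343115 (mm9, minus strand). A second probe, at chr10:5379218-5379277, was well above background in 5 wild-type and 0 null animals, with means of -3.02 ± 0.16 and -5.10 ± 0.46 (SD, n = 5). Another, at chr10:5489352-5489411 on the minus strand, reads coding sequence of the ligand-binding domain and was above background in all 10 animals, with means of -1.82 ± 0.38 and -3.50 ± 0.58 (SD, n = 5) and a difference of -1.68 ± 0.24 (SE, adjusted p = 0.00469 over all probes). It is shown because it reads the receptor's coding sequence, as the 60 bases of the array design with no letter marked. Signal was lower at all 3 kept probes, but the second passed the filter only through wild-type animals, so its direction adds little. The reporter and the coding probe were above background in all 10 animals and lower in nulls. They do not place the loss in any 1 part of the gene.

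Esr1 coding probe: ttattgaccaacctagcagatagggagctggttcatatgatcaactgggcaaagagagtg

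No other receptor that binds or resembles the binder of estrogen passed the test. Esr2, the gene of estrogen receptor beta, averaged 3.05 ± 0.11 in wild-type and 2.92 ± 0.10 in null animals (SD, n = 5; adjusted p = 0.759). Gper1, which encodes a membrane receptor that responds to estrogens, differed by -0.36 ± 0.22 (SE, adjusted p = 0.594). The estrogen-related orphan receptors Esrra and Esrrb differed by 0.11 (adjusted p = 0.668) and 0.28 (adjusted p = 0.388). Of the 19 receptor coregulators tested none was called, and their median difference was -0.003.

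Genes next to Esr1 made up a visible share of the called genes. Of 71 other genes tested within 10 Mb of the Esr1 reporter, 3 were called (4.23%), against 12 of 21531 genes elsewhere in the genome (0.0557%), and 12 of the 71 had groups that did not overlap (16.9%), against 1.83% elsewhere. The 3 lay 1.15 to 2.25 Mb from the Esr1 reporter and moved in both directions. Null animals also carry whatever sequence is linked to the mutant allele, so receptor loss and linked sequence cannot be told apart at these genes.

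Zc3h12d encodes an RNase that curbs inflammatory messages and is best known from lymphocytes. Its levels were -1.32, -1.57, -1.86, -1.25 and -0.63 in wild-type animals and -4.02, -4.41, -4.42, -3.96 and -3.77 in null animals, with the probe well above background in 5 and 3 of them. The groups lay far apart, with a difference of -2.79 ± 0.38 (SE, adjusted p = 0.00232) at chr10:7589850-7589909. Of 11 tested markers of T and NK cells 8 were above 0 and none was called, with Cd7 lowest at -0.44 (adjusted p = 0.347) and without overlap. Their median difference was 0.03, and their summed log2 level ran from 4.87 to 5.48 in wild types and 4.65 to 5.29 in nulls. Of the B and plasma cell markers, 5 of 6 tested members were above 0 with a median of 0.14 and none called, and their summed level ran from 0.66 to 1.16 and from 0.92 to 1.06. The part of lymphocytes in the Zc3h12d result was not tested. In bulk tissue fewer cells of a type and less RNA per cell cannot be told apart.

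A330032P22Rik, a long noncoding RNA, had levels of -3.48, -2.97, -2.53, -2.79 and -2.78 in wild-type and -4.95, -4.17, -4.68, -4.41 and -4.66 in null animals. Null animals were lower by 1.67 ± 0.26 (SE, adjusted p = 0.0129) at chr10:6627168-6627227, where only 2 of the 5 nulls were well above background. A long intergenic noncoding RNA region that the array names by its bounds, chr10:6480075-6603900, went the other way. Its brightest probe read -3.68, -3.74, -3.57, -4.12 and -3.61 in wild types and -2.48, -2.36, -2.24, -2.61 and -2.07 in nulls, a rise of 1.39 ± 0.24 (SE, 2.62-fold, adjusted p = 0.0337). The other 3 kept probes of that region were also higher in nulls, by 1.29, 1.52 and 2.06, each with an adjusted p above 0.05 over all probes (0.33, 0.116 and 0.117). They were well above background in 1, 1 and 0 wild-type and in 4, 5 and 4 null placebo animals. The null group alone thus carried them past the filter, so their direction adds little. A further probe, above background in 0 placebo animals and not kept, averaged -5.83 in wild types and -6.25 in nulls. The brightest probe, at chr10:6490456-6490515 on the minus strand, is printed because the region has no gene symbol and its letters are its only identity here.

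chr10 RNA region probe: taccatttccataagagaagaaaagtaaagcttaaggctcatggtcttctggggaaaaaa

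Mthfd1l, a mitochondrial enzyme of the folate cycle that lies 0.848 Mb from the Esr1 reporter, was 0.93 ± 0.20 (SE) higher in nulls with an adjusted p of 0.09, just outside the threshold. Its placebo groups did not overlap, with wild types at -1.08 to -0.42 and nulls at -0.27 to 0.32. In E2-treated animals the same gene passed, at 1.46 ± 0.20 (SE, adjusted p = 0.000431).

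**Figure D2:**
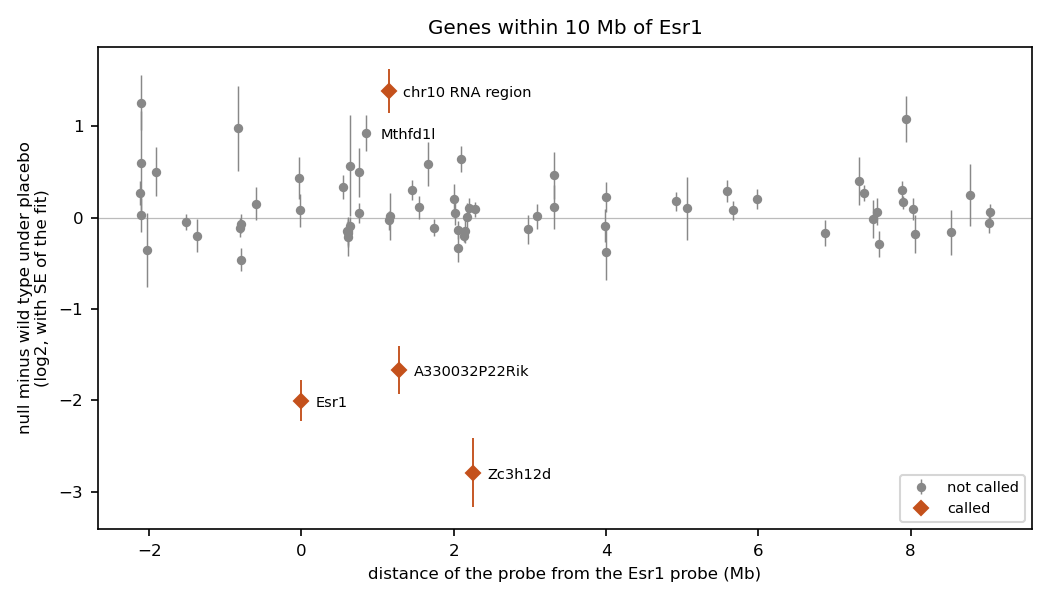
Null minus wild type under placebo (log2, with the SE of the fit) for each of the 72 genes tested within 10 Mb of the Esr1 reporter, by distance of the probe in Mb; diamonds passed an adjusted p of 0.05. Esr1, A330032P22Rik and Zc3h12d lie at -2.0, -1.67 and -2.79, and the chromosome 10 RNA region at 1.39.

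Away from that region, Rgs3 had the largest called difference. Rgs3 encodes a regulator that speeds the turnoff of G protein signals. Its brightest probe, at chr4:62363993-62364052, read 3.65, 4.00, 3.55, 4.17 and 4.23 in wild-type animals and 0.44, 0.58, 0.32, 0.80 and 1.34 in null animals. Null livers were 9.34-fold lower, a difference of -3.22 ± 0.43 (SE, adjusted p = 0.00232). Its other probes showed less. A probe in coding sequence at chr4:62363208-62363267, on the plus strand, averaged 1.33 ± 0.17 (SD, n = 5) in wild types against 0.64 ± 0.08 for null animals (difference -0.69 ± 0.15 SE, adjusted p = 0.113 over all probes). One at chr4:62320777-62320836 differed by -0.21 ± 0.33 (SE, adjusted p = 0.903). With the mean of the kept probes in place of the brightest, the gene differed by -1.37 and was not called. The coding probe is shown beside the Esr1 one because the size of the Rgs3 result depended on which part of the transcript was read.

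Rgs3 coding probe: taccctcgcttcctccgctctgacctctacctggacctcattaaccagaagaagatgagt

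Gm6524, which the RefSeq table lists as a transcribed pseudogene, had the smallest adjusted p. Its levels were 1.49, 1.49, 1.58, 1.56 and 1.46 in wild-type animals and 0.42, 0.34, 0.34, 0.53 and 0.35 in null animals. The SDs were 0.05 and 0.08, and null livers were 2.18-fold lower (-1.12 ± 0.11 SE, adjusted p = 8.78e-05) at chr8:11693102-11693161. A pseudogene resembles its parent gene, so which transcript the probe caught is uncertain. The unnamed probe A_55_P2164977, at chr1:9953498-9953557, fell by 1.75 ± 0.28 (SE, adjusted p = 0.0129), with 5 wild types and 3 nulls well above background. It and the chromosome 10 RNA region have no gene symbol and are given, with their values seen, so that all 16 are listed. Tcf24, a basic helix-loop-helix factor named after its values were seen, differed by -1.34 with an adjusted p of 0.0807.

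Foxq1, a forkhead transcription factor of liver and gut epithelium, was 3.15-fold lower in nulls. Wild-type animals read 2.41, 2.85, 2.48, 3.06 and 1.73, and null animals 0.92, 0.79, 0.92, 0.01 and 1.59. Wild-type animal 5 and null animal 5 lay close together in an otherwise clear gap, and the difference was -1.66 ± 0.30 (SE, adjusted p = 0.0353). Rad51b, a paralog of the strand exchange protein used in homologous recombination, was 3.02-fold lower, with 1.69 to 2.35 in wild types and -0.25 to 0.98 in nulls (-1.60 ± 0.28 SE, adjusted p = 0.0339). Efr3b, which anchors a phosphatidylinositol kinase at the plasma membrane, ran from -2.70 to -2.06 in wild types and from -3.50 to -3.18 in nulls (-1.04 ± 0.14 SE, adjusted p = 0.00232). BC037704, a long noncoding RNA, ran from -2.41 to -2.06 and from -3.29 to -2.53 (-0.78 ± 0.13 SE, adjusted p = 0.0168).

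Alas2 had the smallest adjusted p among the genes that rose. It encodes the erythroid form of the enzyme that opens heme synthesis. Wild-type animals read 2.27, 2.60, 2.52, 2.44 and 2.48, and null animals 3.92, 3.16, 3.25, 3.15 and 3.33, with null animal 1 above all others. The rise was 1.86-fold (0.90 ± 0.12 SE, adjusted p = 0.00232). Other red cell markers lay the same way without passing. Slc4a1, the anion exchanger of the red cell membrane, differed by 0.63 (adjusted p = 0.248), and the alpha globin genes Hba-a2 and Hba-a1 by 0.38 (adjusted p = 0.273) and 0.39 (adjusted p = 0.342). Of 7 tested red cell markers 6 were above 0, the median was 0.38 and only Alas2 was called. Their summed log2 level ran from 8.77 to 9.26 in wild types and from 9.20 to 9.64 in nulls. The part of red cell content in the Alas2 result was not tested. In the E2-treated animals the median of the same markers was -0.09, and Alas2 was at 0.27 ± 0.12 (SE, adjusted p = 0.503).

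Slc2a1, a glucose transporter of endothelium and growing cells, rose 1.65-fold in nulls. Wild types read 1.66, 1.05, 1.11, 0.95 and 1.45 and nulls 1.89, 2.04, 1.93, 2.10 and 1.87, so the nulls lay close together above a wider wild-type group (0.72 ± 0.13 SE, adjusted p = 0.0337). Sfxn1, a mitochondrial serine carrier that feeds one-carbon metabolism, rose by 0.48 ± 0.08 (SE, 1.39-fold, adjusted p = 0.0172), with 4.81 to 5.04 in wild types and 5.27 to 5.60 in nulls. A second Sfxn1 probe differed by 0.41 ± 0.11 (SE, adjusted p = 0.201 over all probes). Slc26a4, the anion exchanger pendrin, rose by 1.06 ± 0.19 (SE, adjusted p = 0.0387), from -3.65 to -2.93 in wild types against -2.54 to -2.17 in nulls. Snhg11, a noncoding host gene of small nucleolar RNAs, rose by 1.45 ± 0.26 (SE, adjusted p = 0.0387), with -3.51 to -2.31 in wild types and -2.11 to -0.74 in nulls. Its difference was 1.40, 0.20 and 1.91 within the 3 slides that held both genotypes.

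Several of these calls depended on the processing. Over 24 alternatives to the reported fit, Foxq1 and the chromosome 10 RNA region were called in 10, Rad51b and Sfxn1 in 14, BC037704 and Slc2a1 in 12, Slc26a4 in 8 and Snhg11 in 9. All 8 lost the call with slide as a block, and Foxq1, Slc26a4 and Snhg11 also with the replicate block. Efr3b was called in 19, but not with median scaling, quantile normalization, normexp background correction or the deposited values. Genes of low signal shrank with normexp, to -0.45 for Efr3b, -0.38 for BC037704, -1.31 for Zc3h12d, -0.52 for A330032P22Rik, -0.64 for the unnamed probe A_55_P2164977, 0.58 for the chromosome 10 RNA region, 0.48 for Slc26a4 and 0.83 for Snhg11, and of these Zc3h12d, A330032P22Rik and the unnamed probe kept the call.

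The animals given E2 offered a second comparison of the genotypes with no sample in common. Of the 16 placebo genes 15 had the same sign there (54.7% of all genes did), 10 had an unadjusted p under 0.05 (9.61% of genes), and 5 passed the adjusted threshold (95 of 21603 genes, 0.44%). The 5 were Esr1, Rgs3, Gm6524, Zc3h12d and the chromosome 10 RNA region, with E2-animal differences of -2.23, -2.82, -0.86, -2.23 and 1.56, the last without wild-type E2 animal 4, whose spot was left out as non-uniform. The exception in sign was BC037704, at 0.02 ± 0.13 (SE) after E2. For 8 genes the E2-animal difference was at least 0.5 times the placebo one. Efr3b was at -0.14, Rad51b at -0.33, Foxq1 at -0.49, Slc26a4 at 0.10 and Slc2a1 at 0.19 in these animals. None of the 16 passed the test of the difference between the treatments in limma, which called 31 genes elsewhere (0.143%), 30 with the placebo difference above the E2 one (0.139%) and 1 below (0.00463%), and the smallest adjusted p among the 16 was 0.111. At an unadjusted p under 0.05 that test took in 9 of the 16 (7.36% of all genes). The 16 were picked on the placebo difference, which is part of that test. Picking them so raises their share in advance, and no conclusion is drawn from it. Wild-type E2 animal 1 stood apart, with 70.0% of its spots well above background against 51.8% to 61.3% on the other E2 arrays.

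**Figure D3:**
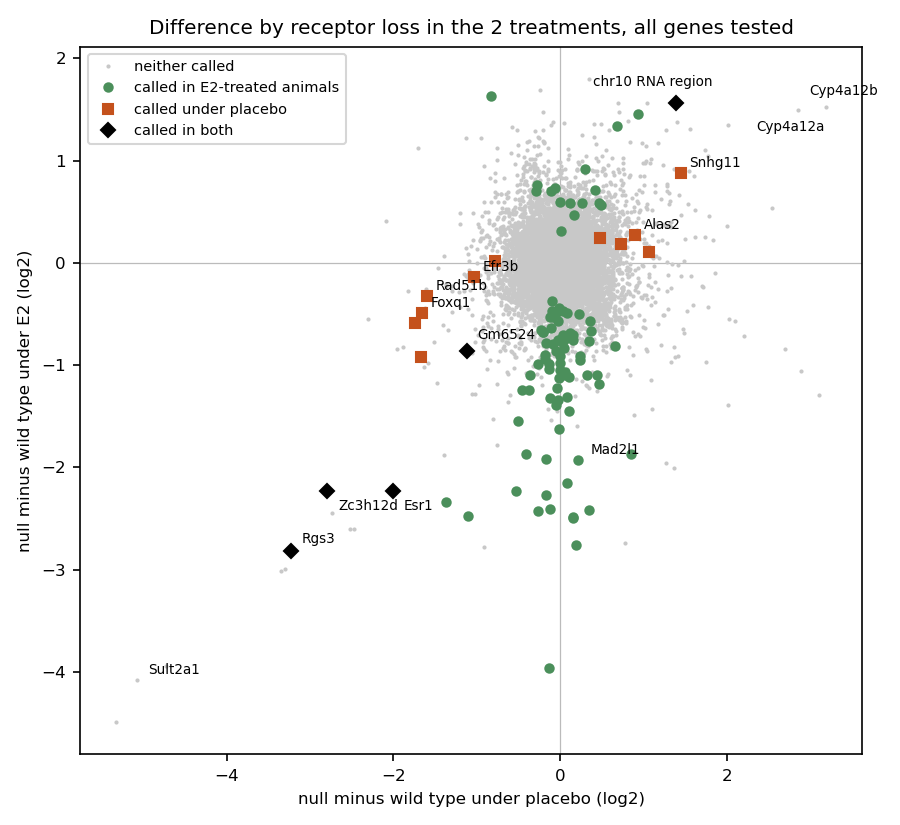
Null minus wild type under placebo (horizontal, log2) against null minus wild type under E2 (vertical, log2) for all 21603 genes tested; squares were called under placebo, circles in E2-treated animals and diamonds in both. The circles spread down the vertical axis near 0 on the horizontal one, with Mad2l1 at 0.22 under placebo and -1.93 under E2.

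Genes that separated the genotypes after E2 mostly did not do so under placebo. Under E2, 78 genes were lower in nulls (0.361% of genes) and 17 higher (0.0787%). Of the 78, 77 remain without Esr1. Their median difference was -0.99 under E2 and -0.02 under placebo, where 33 lay above 0 and 44 below, and 3 were called lower (0.0463% of all genes), namely Rgs3, Gm6524 and Zc3h12d. Mad2l1, a spindle checkpoint protein, was at -1.24 in wild-type and -1.02 in null placebo animals (0.22 ± 0.15 SE, adjusted p = 0.678) and differed by -1.93 under E2. Dsc2, a desmosomal cadherin, was at 1.53 and 1.59 (0.05 ± 0.09 SE) under placebo and differed by -1.10 under E2. Itpk1, an inositol phosphate kinase, differed by -0.05 ± 0.13 (SE) and by -1.39. Dntt, the terminal transferase, lay on opposite sides, at 0.84 ± 0.25 (SE, adjusted p = 0.248) under placebo and -1.87 under E2, and Psen2, a presenilin, did as well, at 0.36 ± 0.09 (SE, adjusted p = 0.158) and -0.67. Of the 17 genes higher in nulls under E2, 12 were above 0 under placebo, with a median of 0.17 against 0.70 under E2, and 1 was called higher (0.0278% of all genes), the chromosome 10 RNA region. Catsper2, a sperm calcium channel subunit, was at -0.11 ± 0.09 (SE) under placebo and 0.70 under E2, and Rai14, an actin-binding protein, at 0.001 and 0.60.

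Genes known as estrogen targets in liver and other tissues lay on both sides of the wild-type level. Of 26 tested members 9 had an unadjusted p under 0.05 (10.3% of all genes), and none was called. Differences ran from -1.70 to 1.36, with 11 above 0 and 15 below and a median of -0.06. The lowest members, Cish and Socs2, also stand on the growth hormone list. Sult1e1, the estrogen sulfotransferase, ran from -2.52 to -0.03 in wild types and from -1.15 to 1.85 in nulls (1.28 ± 0.60 SE, adjusted p = 0.478), with wide spread in both groups. For comparison, 53.2% of all genes tested were above 0 and the median of all genes was 0.01.

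Sex-biased liver genes differed by up to -5.07 and 3.19, further than Rgs3 in the first direction, and among those on the lists only Alas2 passed the test. These genes follow the pulsed (male) or continuous (female) pattern of growth hormone. Sult2a1, a hydroxysteroid sulfotransferase favoured in females, read 7.98, 2.49, 2.55, 4.82 and 5.38 in wild types and -3.06, 0.20, 4.08, -1.23 and -2.12 in nulls. Null animal 3 lay inside the wild-type range, the SDs were 2.28 and 2.79, and the difference of -5.07 ± 1.71 (SE) had an adjusted p of 0.305. It was -4.08 in the E2-treated animals. The female-favoured Cyp3a44 read 3.15, 0.14, -0.44, 2.12 and 1.84 against -0.71, -2.79, -1.80, 1.81 and -2.31 (-2.52 ± 0.85 SE, adjusted p = 0.305). Over all 38 tested female-favoured genes 20 were below 0 and 18 above, none was called and the median was -0.04. The highest member was Sult1e1, given above with the estrogen targets, at 1.28. Atp6v0d2 and Fmo2 are on the same list and had a smaller p under placebo than Sult2a1 and Cyp3a44. Their placebo values are not given here, so the falls of Sult2a1 and Cyp3a44 do not stand for the list. In E2-treated animals Atp6v0d2 ran from -1.64 to -0.03 in wild types and from -0.44 to 1.04 in nulls. Fmo2 ran there from 2.64 to 3.04 and from 2.73 to 3.83.

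Male-favoured fatty acid hydroxylases lay the other way. Cyp4a12b read -3.27, -2.64, -1.10, -2.76 and -3.08 in wild types and 1.93, 0.90, -0.89, 0.29 and 0.86 in nulls (3.19 ± 0.73 SE, adjusted p = 0.129). Wild-type animal 3 and null animal 3 came closest to each other. Cyp4a12a, its near-identical neighbour whose signal the probes may share, differed by 2.85 ± 0.70 (SE, adjusted p = 0.158), and Cyp2d9, a steroid hydroxylase, by 0.95 ± 0.25 (SE, adjusted p = 0.188). The steroid dehydrogenases Hsd3b3 and Hsd3b2 differed by 0.66 (adjusted p = 0.0673, just outside the threshold) and 0.63 (adjusted p = 0.113). Both come from the list of androgen and progestin signalling, not from the male-favoured one. Of its 13 tested members 10 were above 0, with a median of 0.14 and none called. In E2-treated animals 5 were above 0, with a median of -0.03. Without null animal 3 Hsd3b3 and Hsd3b2 were at 0.77 and 0.75 and passed, with adjusted p of 0.00834 and 0.0199. Each passed in only 2 of 24 alternatives. Over all 28 tested male-favoured genes 16 were above 0, Alas2 was the only one called and the median was 0.05.

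Feedback genes of the growth hormone receptor pathway were lower in most null animals without passing. Cish, an inhibitor of cytokine receptor signals, read 4.17, 4.02, 3.67, 4.42 and 3.28 in wild types and 1.56, 2.87, 0.65, 2.20 and 3.75 in nulls, with null animal 5 within the wild-type range (-1.70 ± 0.55 SE, adjusted p = 0.279). Socs2, which acts on the same receptor, differed by -1.61 ± 0.58 (SE, adjusted p = 0.329), and its other 2 kept probes by -1.44 and -1.60. Socs3 read 3.0 to 3.91 in wild types and 1.64 to 2.65 in nulls 2 to 5, but 3.65 in null animal 1 (-0.93 ± 0.26 SE, adjusted p = 0.218). Without null animal 1 the Socs3 difference was -1.22 and passed, with an adjusted p of 0.017, in only 1 of 24 alternatives. Of 18 tested genes of growth hormone signalling 8 were above 0 and none was called, with a median of -0.03. Irs2, an adaptor of the insulin receptor, differed by -0.69 (adjusted p = 0.329) and Igfbp1, a binding protein of insulin-like growth factors, by 1.01 (adjusted p = 0.488).

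**Figure D4:**
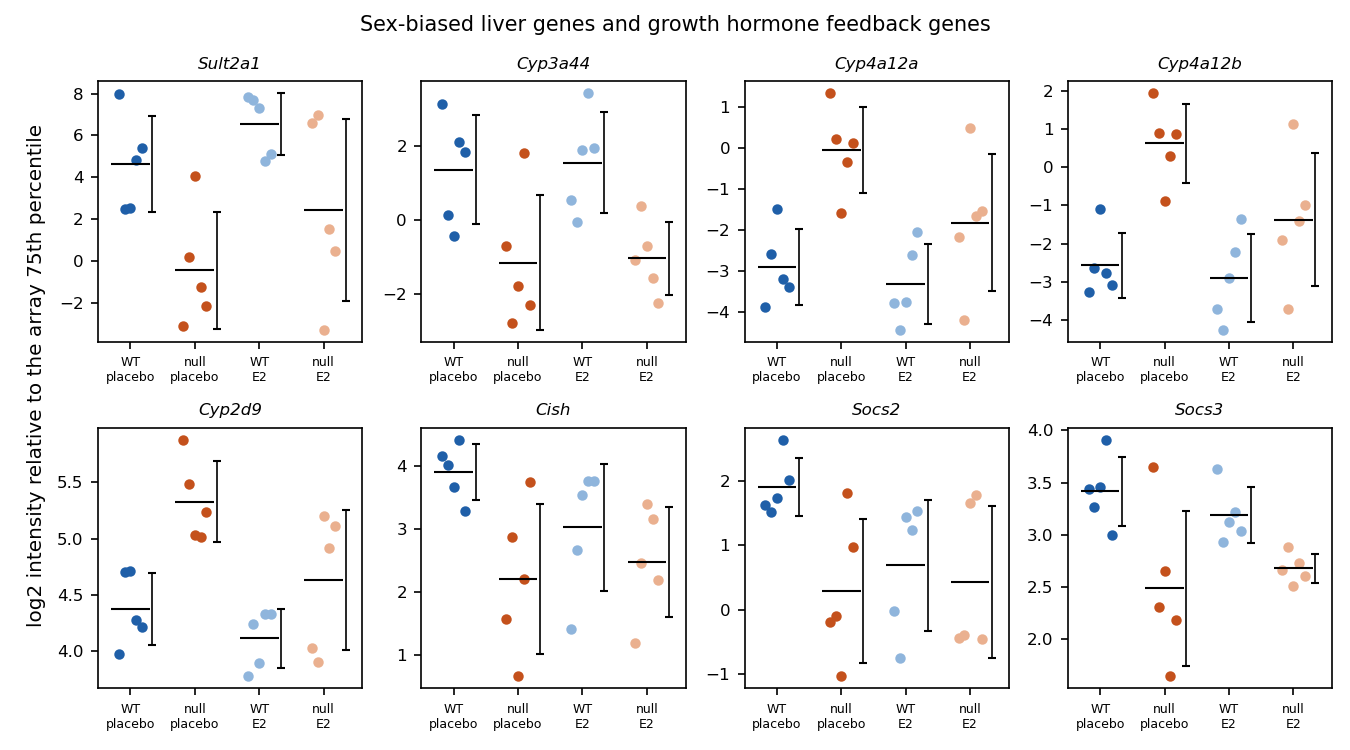
Log2 intensity relative to the 75th percentile of the array for 5 sex-biased liver genes and 3 feedback genes of growth hormone signalling in the 4 groups of 5 animals, with group means (lines) and 1 SD (whiskers). Null placebo animals span -3.06 to 4.08 for Sult2a1, and none of these 8 genes passed an adjusted p of 0.05 under placebo.

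In several metabolic lists most members lay above 0, with none past the threshold. All 25 genes of cholesterol synthesis were higher in nulls, with a median of 0.46 (0.01 for all genes) and 13 at an unadjusted p under 0.05 (10.3% of all genes). Acat2, the cytosolic thiolase that makes acetoacetyl-CoA, differed by 0.47 ± 0.12 (SE, adjusted p = 0.177), Sc5d, which acts late in the pathway, by 0.43 (adjusted p = 0.243), and Msmo1, a sterol oxidase, by 1.04 ± 0.36 (SE, adjusted p = 0.311). The centred median of the list ran from -0.71 to 0.19 in wild types and from -0.10 to 0.86 in nulls, so the groups overlapped. Within slides the median was 0.50, 1.23 and 0.10, the last on the slide with 2 animals of each genotype. Without the animals numbered below 750 it was 0.26, and in E2-treated animals it was 0.21 with 22 of 25 above 0.

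Among 30 tested glucocorticoid targets and enzymes of amino acid catabolism, 29 were above 0, with a median of 0.36 and none called. The median was 0.19 without the animals numbered below 750, and 0.29, 0.73 and 0.28 within slides. Ddit4, a stress-induced brake on the mTOR kinase, read 3.6, 4.82, 2.09, 2.20 and 2.22 in wild types and 6.11, 4.37, 5.29, 5.11 and 5.09 in nulls. Wild-type animal 2 was above null animal 2, and the difference was 2.21 ± 0.51 (SE, adjusted p = 0.128). Without that wild-type animal it was 2.67 and passed, with an adjusted p of 0.0246. Ddit4 passed in only 1 of 24 alternatives, this one. Gpt2, a transaminase, Oat, which degrades ornithine, and Sgk1, a hormone-induced kinase, differed by 0.42, 0.80 and 0.76 (adjusted p = 0.129, 0.141 and 0.186). The list's median was 0.03 in the E2-treated animals, with 16 of 30 above 0, and Ddit4 was at -0.72 there. Cebpd and Cebpb, transcription factors of the acute response, differed by 1.03 (adjusted p = 0.213) and 0.54 (adjusted p = 0.252), and Foxa2, a pioneer factor of hepatocytes, by -0.80 (adjusted p = 0.29).

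Of 30 tested genes of fatty acid and triglyceride synthesis 24 were above 0, with a median of 0.27, none called, and 0.03, 0.36 and 0.25 within slides. Elovl3, a fatty acid elongase that is also favoured in males, differed by 1.31 ± 0.44 (SE, adjusted p = 0.305) and Thrsp, which follows lipogenesis, by 0.74 (adjusted p = 0.326). Cd36, a fatty acid receptor, read 0.28 to 1.82 in wild types and 1.96 to 2.86 in nulls with no overlap (1.23 ± 0.40 SE, adjusted p = 0.287). Apoa5, an activator of triglyceride clearance, ran from 5.32 to 5.72 in wild types and from 5.15 to 5.27 in nulls (-0.22 ± 0.13 SE, adjusted p = 0.578).

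Xenobiotic enzymes were above 0 in 33 of 39 tested members with a median of 0.18 (0.19, 0.37 and 0.12 within slides), and none was called. Aldh1a7 and Aldh1a1, cytosolic aldehyde dehydrogenases that also handle retinal, differed by 0.68 ± 0.13 and 0.54 ± 0.11 (SE, adjusted p = 0.0673 and 0.09), both without overlap. Without null animal 3 Aldh1a7 passed (adjusted p = 0.0371), in only 1 of 24 alternatives. Gstm2, a glutathione transferase, differed by 0.64 (adjusted p = 0.141). In one-carbon and choline metabolism 22 of 24 members were above 0, with a median of 0.18 (0.26, 0.36 and 0.09 within slides) and none called. Cth, which makes cysteine from cystathionine, ran from 5.32 to 6.02 in wild types and from 6.14 to 7.22 in nulls (0.91 ± 0.24 SE, adjusted p = 0.188). Bhmt2 and the choline transporter gene Slc44a1 differed by 0.58 (adjusted p = 0.149) and 0.40 (adjusted p = 0.206), and Rdh5, a retinol dehydrogenase, by 0.48 (adjusted p = 0.166).

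Interferon response genes were above 0 in 28 of 34 members, with a median of 0.34, 14 at an unadjusted p under 0.05 and none called. Ifih1, a sensor of double-stranded RNA, differed by 0.51 ± 0.12 (SE, adjusted p = 0.152), Irf7, a factor that amplifies interferon, by 0.60 (adjusted p = 0.191), and the antiviral effectors Oasl1 and Rsad2 by 0.73 (adjusted p = 0.218) and 0.74 (adjusted p = 0.279). Null animal 3 read 0.52 for Irf7, within the wild-type range of 0.04 to 0.87, while the other 4 nulls read 1.15 to 1.28. Without that animal Ifih1 and Irf7 passed, with adjusted p of 0.033 and 0.0371, each in only 1 of 24 alternatives. Within slides the list's median was 0.62, -0.24 and 0.45, so slide 2, with 1 animal of each genotype, went against the other 2. The placebo median was 0.42 without the animals numbered below 750. In E2-treated animals the list's median was 0.21, with 29 of 34 above 0.

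Genes of periportal hepatocytes were above 0 in 18 of 21 members, with a median of 0.21 and 7 at an unadjusted p under 0.05, but 0.06 without the animals numbered below 750 and 0.28, 0.33 and 0.11 within slides. Genes of glucose metabolism and insulin signalling were above 0 in 25 of 28 members with a median of 0.19. Immediate early genes were above 0 in 14 of 23 members with a median of 0.24, which was -0.02 without the animals numbered below 750. No member of these 3 lists was called. Endoplasmic reticulum stress genes were below 0 in 20 of 26 members with a median of -0.08, although Herpud1, which removes misfolded proteins, was at 0.54 (adjusted p = 0.429). Major urinary proteins were below 0 in 7 of 8 members with a median of -0.17, and Mup2 differed by -0.48 (adjusted p = 0.628); members of this cluster are near-identical, so their probes may share signal. Core clock genes had a median of 0.03. The clock repressor Ciart differed by 1.09 ± 0.28 (SE, adjusted p = 0.179), Per1 by 0.58 (adjusted p = 0.319) and Nr1d1 by -0.82 (adjusted p = 0.362). Cell cycle genes had a median of -0.05, with Aspm, a spindle protein, at -1.08 (adjusted p = 0.215) and Cdkn1a, a cell cycle inhibitor, at 2.01 ± 0.82 (SE, adjusted p = 0.387). Over the 44 lists, 30 medians were above 0 under placebo and 23 in E2-treated animals, and of 783 distinct genes tested in them Esr1 and Alas2 were called (0.0741% of all genes were).

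**Figure D5:**
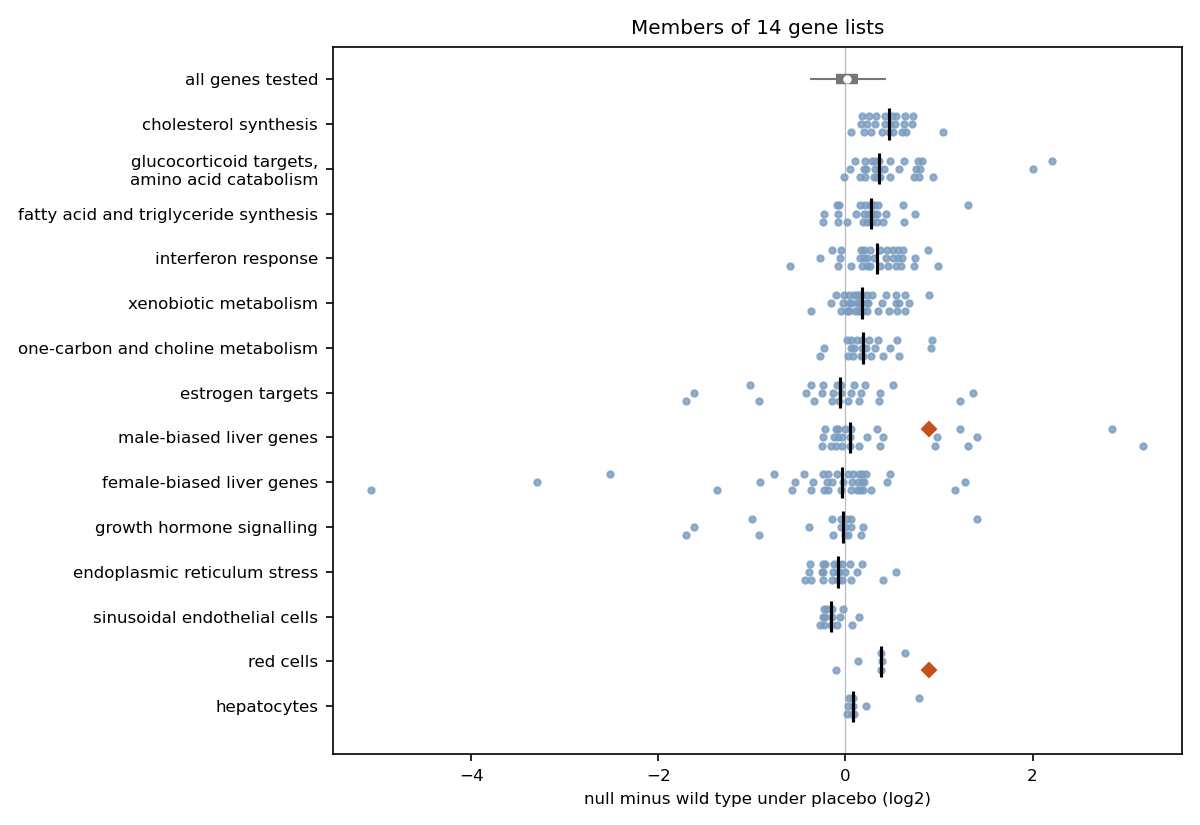
Null minus wild type under placebo (log2) for each tested member of 14 gene lists; points are genes, black bars list medians, diamonds called genes, and the top row gives all 21603 genes as the 5th to 95th percentile (line), the interquartile range (bar) and the median (dot). All 25 cholesterol synthesis genes lie right of 0, and the longest tails on both sides belong to the female-biased and male-biased lists.

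Markers of the cell types in a piece of liver gave the label check. All 9 hepatocyte markers were detected, with a median difference of 0.08 and a summed log2 level of 12.76 to 13.04 in wild types and 12.79 to 13.14 in nulls. Kupffer cell markers had a median of -0.01 (7 of 15 above 0), stellate cell markers -0.06 (7 of 16) and sinusoidal endothelial markers -0.15 (2 of 14, summed level 5.80 to 6.75 against 5.52 to 6.45). Cholangiocyte markers had a median of 0.25 (10 of 12 above 0), with Tspan8 at 0.66 (adjusted p = 0.316) and Cftr at -0.53 (adjusted p = 0.465). All 6 tested adipocyte markers were above 0, with a median of 0.34, and Cfd, the adipose complement factor, was at 1.44 ± 0.53 (SE, adjusted p = 0.336). Their summed level ran from 3.18 to 3.92 in wild types and from 3.44 to 4.11 in nulls, while Adipoq, Lep and Plin1 were not detected in either group by the filter. Of 10 muscle and 14 pancreas markers 1 and 5 were detected. The part of such cells in the differences of the lipid and metabolic lists was not tested.

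Estrogen response elements were looked for in the promoters of the called genes, from 250 bases before to 50 after each start in the RefSeq table for GRCm38.p6. Of the 16 genes 12 had an entry, with 15 promoters. The full palindrome, GGTCA then any 3 bases then TGACC, which reads alike on both strands, was in 0 of the 15, against 0.07% of all 32851 promoters. At so low a share, 0 was the likely count for any 15 promoters, so it says little. Sequence outside these bounds was not searched. A single arm, AGGTCA or TGACCT on the other strand, was in 2 of the 15 (13.3%), against 16.3% of all promoters. Those 2 are printed with the arm in capitals because they are the only ones among the called genes. In Alas2 it starts 245 bases before the start, and in Rad51b 26 bases after it.

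Alas2 promoter arm: actgaAGGTCAgagggatggttc
Rad51b promoter arm: gttccacgctgcTGACCTggtactggagtt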

How the data were processed

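Per the labels' protocols, total RNA of snap-frozen liver was labelled with Cy3 and hybridized to 1-colour Agilent arrays, 1 per animal. Per the file headers, each deposited scanner file holds a processed intensity per spot, background-subtracted by Agilent Feature Extraction 10.10.1.1, with probe positions on mm9. A deposited value table, on a log2 scale and of unstated normalization, correlated per array at 0.99867 or more with the scanner's log2 median signal, and served as an alternative. The submitters' processing notes name limma without a version.

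The log2 processed intensity was taken relative to the 75th percentile of non-control spots on each array. A probe was kept where 4 of the 5 arrays of a placebo group called it well above background (30319 of 55681 probes), and the brightest kept probe stood for its gene. Non-uniform spots were left out. Names came from RefSeq accessions for 27235 probes, and 24300 kept the array's own name. Limma 3.58.1 in R 4.3.3 fitted 4 group means to the 20 arrays together (residual degrees of freedom 16). Tests were 2-sided, and p-values of each contrast were adjusted by Benjamini-Hochberg across the 21603 genes. SE is that of the fit and SD that of 5 animals. The text names genes called with a symbol and groups that did not overlap (up to 14 in each direction), Esr1, Esr2 and Gper1, and for each list its called members or else up to 4 with the smallest p. It also names up to 5 genes called under E2 in each direction and up to 5 called for the difference between treatments. The members, gene lists, tests and alternatives were chosen with earlier results of these data known. The fit was tested on simulated data. Alternatives changed the scaling, background correction, source of values, filter, probe rule, samples fitted, slide, replicate number and animal number, and left out each animal in turn. Expression of genes without a kept probe was not analysed here. The number of arrays limits the precision.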

Additional observations from a re-analysis of the deposited data

Results flagged for a closer look

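In 166 groups of 5 animals, 2 for each of 83 genes named, the highest or lowest animal stood apart from the others in 11, and chance flags about 1 group in 20. Null animal 1 was high for Alas2 (3.92, the others 3.15 to 3.33), Oat (7.51, the others 6.92 to 7.07) and Bhmt2 (7.02, the others 6.65 to 6.75). Null animal 3 was low for Irf7 (0.52, the others 1.15 to 1.28). Null animal 4 was low for Mthfd1l (-0.27, the others 0.15 to 0.32) and Slc4a1 (-2.35, the others -1.97 to -1.90). Null animal 2 was low for Cftr (-2.50, the others -2.05 to -1.91). Wild-type animal 1 was high for Apoa5 (5.72, the others 5.32 to 5.36), animal 4 low for Gpt2 (5.36, the others 5.78 to 5.86) and animal 5 high for Slc26a4 (-2.93, the others -3.65 to -3.45) and Cd7 (-1.66, the others -2.60 to -2.42).

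The null effect differed between placebo and E2-treated animals for 31 genes by limma's test of the difference. Those named above were Mad2l1 (placebo difference minus E2 difference 2.14, adjusted p = 8.09e-05), Dsc2 (1.15, adjusted p = 0.000273), Psen2 (1.03, adjusted p = 0.000778), Dntt (2.71, adjusted p = 0.00152), Itpk1 (1.34, adjusted p = 0.00225) and Catsper2 (-0.81, adjusted p = 0.00548).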

How the results depend on the processing

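The count of 16 genes under placebo was 9 with median scaling, 8 with no filter on dim probes, 9 with placebo arrays alone, 9 with slide as a block, 2 with animals numbered 750 or above, and 6 to 51 when 1 animal was left out. It was 11 with quantile normalization, 12 with normexp, 14 with the deposited values and 13 with the replicate block; same-numbered animals shared only a number (correlations of their deviations -0.109 to 0.255, above 0.1 in 2 of 5 pairs, and 2 animals correlated best with their own number). In 381 refits of the 16 genes none changed sign, 257 kept the call and 124 lost it. Refits that only left out animals could not change a sign, because the groups of the 16 did not overlap. Esr1 was called in all 24 settings, Gm6524 in 23, Slc26a4 in 8 and Snhg11 in 9. The 95 genes under E2 became 32 with median scaling, which put the median E2 difference of all genes at 0.12, and 31 with animals numbered 750 or above. They became 59 to 88 without 1 of the E2-treated animals and 77 to 105 without 1 placebo animal. The 31 genes for the difference became 14 and 8 in the same 2 settings. Wild-type E2 animal 1 had a log2 median intensity of 5.83, against 4.67 to 5.32 on all other arrays. Without that animal 64 genes were called under E2. Its part in the change with median scaling was not tested. The 3 called genes near Esr1 became 1 with probes detected on all 10 placebo arrays, 0 with animals numbered 750 or above and 1 with animals below 750 as a block, and 1 to 3 without 1 animal (1 without wild-type animal 3). The 2 list members called became 1 with median scaling, 1 with placebo arrays alone, 1 with animals numbered 750 or above and 4 with animals below 750 as a block, and 2 to 7 without 1 animal (7 without null animal 3). The placebo median of genes lower under E2, Esr1 left out, was -0.042 with quantile normalization and -0.044 with the deposited values, against -0.023. Groups did not overlap for 470 to 904 genes without 1 animal, against 406 with all. Leaving out an animal cannot lower that count, so the direction of this change was fixed in advance. The share of spots above background, null minus wild type, ran from -2.15 to 0.055 points, and was above 0 without null animal 1. The causes were not tested.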
